A study of Mus musculus with 15 samples.

Results

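The 38 genes described here encode glycolysis and the response to low oxygen. They are the rows of the deposited tables whose symbol is on a list of 13 glycolytic enzymes, 5 genes that carry glucose and lactate or set the glycolytic rate, and 20 other targets or regulators of hypoxia-inducible factor (HIF). All 38 were found among 24027 symbols common to the tables. The list was drawn up with earlier results of these data known, so shares of it set beside all genes are descriptive. Skin RNA of female mice of the hairless strain SKH1 had been sequenced. Their age is given as 6 to 8 weeks. For mice irradiated over 10 weeks this cannot be the age at sampling. There were 5 groups of 3 libraries, 15 in all. The first was lesional skin of mice irradiated with ultraviolet B at 500 J/m2, 5 days a week over 10 weeks, and treated with 0.25 g of GZ21T cream 5 days a week. The other 4 came from mice given the placebo cream: lesional, perilesional and non-lesional skin of irradiated mice, and skin not exposed to ultraviolet light. The lesions are actinic keratoses, keratinocyte growths that can precede squamous cell carcinoma. The headers name no non-UV-exposed group but a group of back skin of placebo mice, which was taken as the non-UV-exposed one by elimination, and every value over non-UV skin rests on that match. Body site and irradiation cannot be told apart in comparisons with it.

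HIF is a transcription factor made of an oxygen-regulated alpha subunit and a stable beta subunit. With oxygen present, prolyl hydroxylases of the Egln family mark the alpha subunit for destruction through the von Hippel-Lindau protein. When oxygen is low the subunit persists, binds short DNA elements with the core RCGTG, and raises genes for glucose uptake, glycolysis, lactate export, pH control, collagen hydroxylation and vessel growth. In keratinocytes glycolytic genes and HIF alpha also respond to growth factor signalling.

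The tables give a log2 fold change, a Wald statistic and p-values for 4 comparisons, with no value per library, so neither a level per sample nor the overlap between single libraries could be shown. Depth per library is unknown. The standard error (SE) of a fold change was taken as the fold change over the Wald statistic, and a gene was called at an adjusted p under 0.05 over all genes tested. The labels number the placebo libraries 1 to 3 at every site without stating that each is a separate animal, so the p-values rest on spread among libraries that may be technical. In bulk skin, fewer cells of a type and less RNA per cell cannot be told apart. Lesional over perilesional skin was derived from 3 of the deposited tables. All 12 basal keratinocyte markers were tested in every comparison, while the tables give no level by which the tissue could be checked further.

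Egln3, Ndrg1, Car9, Vegfa, Adm and P4ha2 were higher in placebo lesions than in the skin around them. In lesional over perilesional skin 6 of the 38 genes rose and 0 fell, against 0.411% of all 14121 genes tested that were called higher. All 6 were among the 20 other HIF targets and regulators, and none was a glycolytic enzyme or a gene of transport and control. Every one of the 38 had a positive log2 fold change, with a median of 0.90, while 7829 of all genes tested were positive and their median was 0.05. At an unadjusted p under 0.05 there were 22 of the 38, of which 5 were enzymes, against 11.1% of all genes.

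The called genes cover several arms of the response. Egln3, a prolyl hydroxylase that is itself a HIF target and marks HIF alpha for destruction, was 3.77-fold higher in lesional than in perilesional skin, with a log2 fold change of 1.92 ± 0.40 (SE) and an adjusted p of 0.0021 (derived fit, normal tail, Benjamini-Hochberg). The gene lies on the minus strand at chr12:54178981-54203860 of GRCm38. Ndrg1, a gene of differentiation and stress that HIF induces in many cells, was 5.30-fold higher at a log2 fold change of 2.41 ± 0.55 and an adjusted p of 0.0055. Those were the smallest adjusted p values among the 38 in this comparison. Car9, the membrane carbonic anhydrase that exports acid equivalents from hypoxic cells, was 6.61-fold higher (2.72 ± 0.74 on the log2 scale, adjusted p of 0.041). Vegfa, the growth factor for blood vessels, was 2.61-fold higher (1.38 ± 0.38, adjusted p of 0.041). Adm encodes adrenomedullin, a secreted vasodilator peptide, and its log2 fold change of 4.01 ± 1.11 was the largest of the 38 but also the least precise, with a 95% interval from 1.84 to 6.19 and an adjusted p of 0.049. P4ha2, a subunit of the prolyl hydroxylase that stabilises collagen, was 2.02-fold higher (1.02 ± 0.27, adjusted p of 0.035).

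Promoter sequence was compared among these genes because HIF binds the letters ACGTG or GCGTG. Windows of 250 bases ending at the base before the RefSeq transcription start were searched on both strands, and 34 of the 38 genes had a window in the RefSeq table (GRCm38.p6). Of all 27025 RefSeq promoters 38.6% held at least 1 match, and of the 11249 promoters of genes tested in lesional over non-UV skin 54.2% did. Among the 34 members 25 did (73.5%), made up of 8 of 13 enzymes (61.5%) and 17 of 21 other members (81%). Bnip3l, Ero1l, Ndrg1 and Plod2 had no window. The windows of the called genes Egln3, Car9, P4ha2, Adm and Vegfa are shown 5′ to 3′ on the gene's strand, followed by those of the enzyme genes Pgk1 and Ldha for contrast, with capitals marking each match on either strand. For Vegfa and Ldha, 1 of 2 listed starts is shown.
Egln3, chr12:54203875-54204124, minus strand: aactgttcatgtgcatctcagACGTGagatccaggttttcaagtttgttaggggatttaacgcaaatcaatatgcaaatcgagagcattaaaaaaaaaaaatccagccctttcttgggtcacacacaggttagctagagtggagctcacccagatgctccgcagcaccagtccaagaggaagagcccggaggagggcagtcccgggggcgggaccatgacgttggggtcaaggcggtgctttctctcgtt
Car9, chr4:43506776-43507025, plus strand: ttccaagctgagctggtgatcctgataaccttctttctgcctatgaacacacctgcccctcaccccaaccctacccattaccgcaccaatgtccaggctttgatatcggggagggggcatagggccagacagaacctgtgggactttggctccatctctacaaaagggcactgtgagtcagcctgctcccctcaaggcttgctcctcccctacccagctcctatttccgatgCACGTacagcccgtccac
P4ha2, chr11:54100674-54100923, plus strand: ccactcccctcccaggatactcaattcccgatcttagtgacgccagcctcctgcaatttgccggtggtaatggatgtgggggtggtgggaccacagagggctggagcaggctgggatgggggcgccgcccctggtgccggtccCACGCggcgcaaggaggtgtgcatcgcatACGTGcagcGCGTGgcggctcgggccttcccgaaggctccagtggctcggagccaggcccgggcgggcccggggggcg
Adm, chr7:110627407-110627656, plus strand: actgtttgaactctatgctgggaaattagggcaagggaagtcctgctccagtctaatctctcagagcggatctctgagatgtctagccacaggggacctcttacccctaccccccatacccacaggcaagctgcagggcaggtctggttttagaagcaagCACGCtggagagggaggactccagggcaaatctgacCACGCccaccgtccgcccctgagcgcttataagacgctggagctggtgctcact
Vegfa, chr17:46032378-46032627, minus strand: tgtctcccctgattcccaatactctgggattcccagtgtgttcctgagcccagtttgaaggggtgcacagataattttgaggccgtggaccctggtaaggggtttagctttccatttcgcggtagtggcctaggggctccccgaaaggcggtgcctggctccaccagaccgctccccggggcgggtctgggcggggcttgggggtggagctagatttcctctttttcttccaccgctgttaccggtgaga
Pgk1, chrX:106186850-106187099, plus strand: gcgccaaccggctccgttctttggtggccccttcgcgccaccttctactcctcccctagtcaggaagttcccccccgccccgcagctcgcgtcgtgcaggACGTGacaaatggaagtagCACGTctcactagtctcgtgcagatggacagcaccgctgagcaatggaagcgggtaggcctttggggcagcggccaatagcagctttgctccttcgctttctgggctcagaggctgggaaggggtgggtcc
Ldha, chr7:46845554-46845803, plus strand: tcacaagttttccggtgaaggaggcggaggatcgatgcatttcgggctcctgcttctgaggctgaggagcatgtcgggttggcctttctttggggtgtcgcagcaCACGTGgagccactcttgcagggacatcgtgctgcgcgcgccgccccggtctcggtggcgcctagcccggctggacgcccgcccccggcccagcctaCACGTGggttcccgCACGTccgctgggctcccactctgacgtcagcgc
Egln3 had 1 match, 229 bases before the start, and Car9 had 1 match 18 bases before it. P4ha2 held 3, at 107, 78 and 69 bases, and Adm held 2, at 90 and 54 bases. In the Vegfa window these letters did not occur. Pgk1 held 2, at 150 and 131 bases. Ldha held 5, of which 4 come from 2 copies of CACGTG, since that palindrome reads as ACGTG on both strands. Pgk1 and Ldha were picked as examples, while the windows of the enzymes Aldoa, Gpi1, Hk1, Pkm and Tpi1 held no match. Thus Egln3, Car9, P4ha2 and Adm carried the letters, as did 2 enzymes not called in lesional over perilesional skin. A match is only a description of the sequence.

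**Figure D1:**
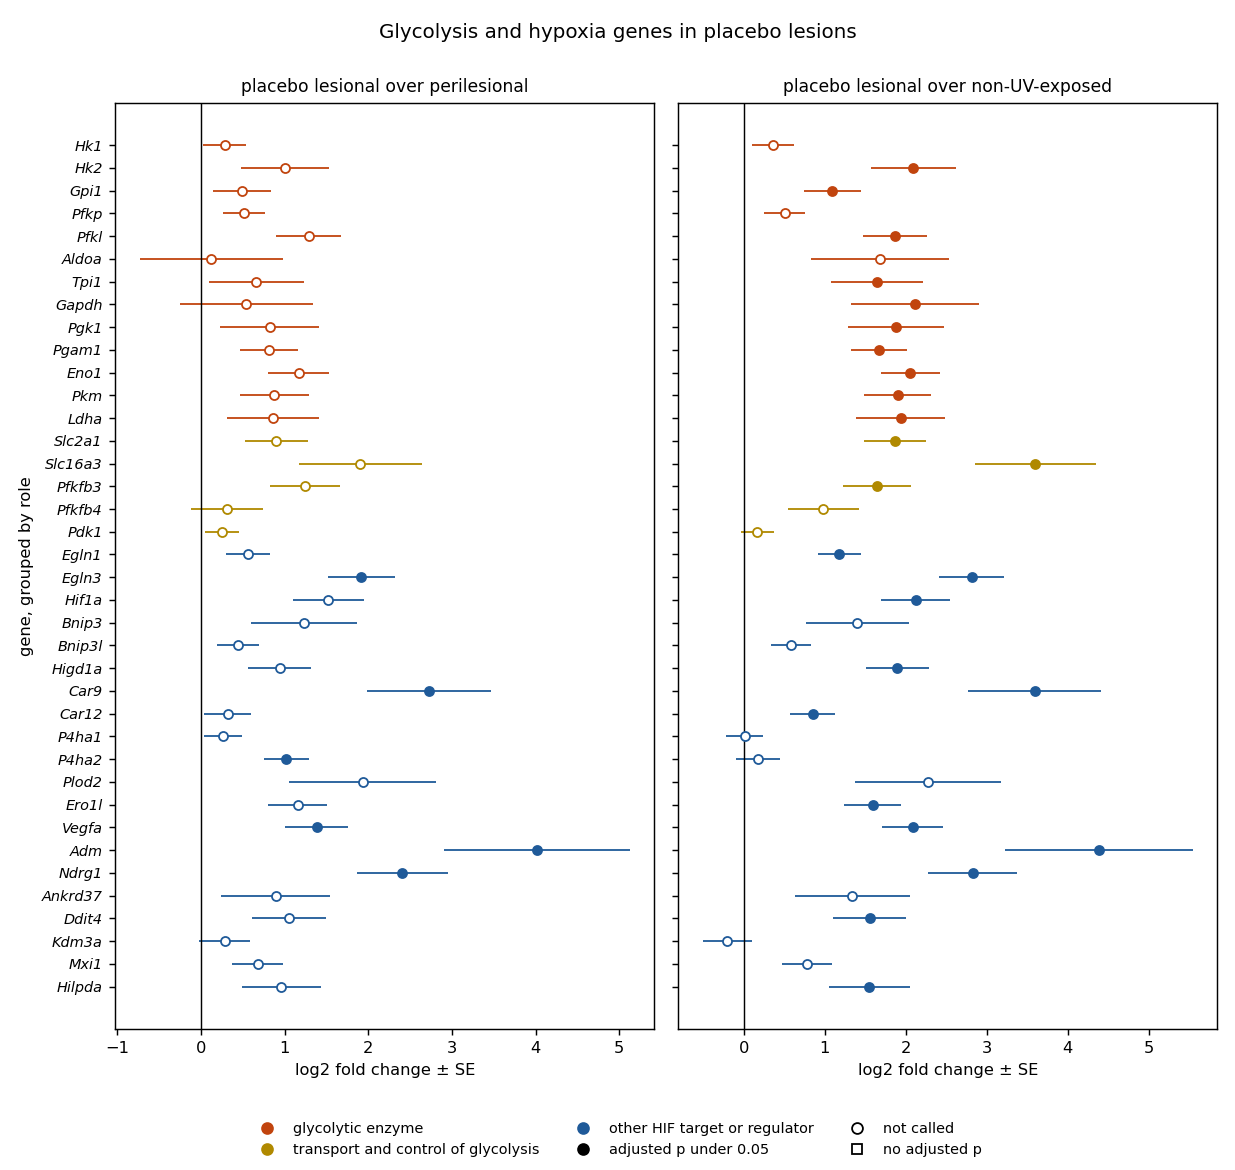
Log2 fold change ± SE of the 38 genes (rows, coloured by role) in placebo lesional over perilesional skin (left) and over non-UV-exposed skin (right), with filled circles at an adjusted p under 0.05. On the left the 6 filled points are all HIF targets outside glycolysis, and on the right 10 of 13 enzymes are filled as well.

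The enzymes had smaller values in this comparison. Their 13 log2 fold changes in lesional over perilesional skin ran from 0.12 to 1.28 with a median of 0.81, and those of the 20 other HIF genes from 0.26 to 4.01 with a median of 1.03. Pfkl, the liver-type phosphofructokinase at the committed step of glycolysis, came closest among the enzymes (1.28 ± 0.39, adjusted p of 0.093). Eno1, which makes phosphoenolpyruvate, had 1.16 ± 0.36 and an adjusted p of 0.11. Hif1a, the alpha subunit itself, missed the threshold with 1.52 ± 0.43 and an adjusted p of 0.054, as did Ero1l, the oxidase of disulfide formation in the endoplasmic reticulum (1.15 ± 0.35, adjusted p of 0.088). Among transport and control genes, Slc16a3, the lactate exporter MCT4, had 1.90 ± 0.74 (adjusted p of 0.26), Pfkfb3, which makes the activator of phosphofructokinase, 1.24 ± 0.42 (adjusted p of 0.15), and Slc2a1, the glucose transporter GLUT1, 0.90 ± 0.38 (adjusted p of 0.32). None of these transport, control and enzyme genes passed the threshold, and whether the enzymes differed less than the other HIF genes was not tested.

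How many genes passed depended on the error used. With the largest of the 3 deposited SEs in place of the derived one, 3 of the 6 remained called, namely Egln3, P4ha2 and Ndrg1. With the Wald statistics scaled to a null spread taken from all genes, 0 did. Of the markers of other cell types in the same comparison, endothelial markers had a median of 1.15 (0 of 12 called), hair follicle markers 3.49 (0 of 16 called) and red blood cell markers 4.68 (0 of 4 called, 4 at an unadjusted p under 0.05). Markers of keratinocytes under stress, such as Krt6a and Krt16, had 1.17 (0 of 11 called), and skeletal muscle markers -0.24. Suprabasal keratinocyte markers had a median of -0.80, with 1 of 11 called higher. At an unadjusted p under 0.05 in the derived fit there were 11 of 16 hair follicle and 0 of 12 endothelial markers. Keratinocyte markers at that threshold were 5 of 11 for stress, 5 of 11 suprabasal and 6 of 12 basal. The part of these cell types in the result was not tested.

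Against non-UV-exposed skin most of the 38 genes were higher in placebo lesions, with enzymes among them. Of the 38 genes 25 rose and 0 fell in the authors' deposited table, while 10.2% of 15201 genes tested were called higher. The authors' deposited table has 10 of 13 enzymes called, 3 of 5 genes of transport and control, and 12 of 20 other HIF targets and regulators. Medians of the log2 fold changes in the authors' deposited table were 1.87, 1.65 and 1.55 in that order, beside 0.08 over all genes tested. The enzymes ran from 0.36 to 2.11 in the authors' deposited table, and the other HIF genes from -0.20 to 4.38, the upper end being Adm.

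Most steps of glycolysis had a called gene in lesional over non-UV skin. Hk2, the inducible hexokinase that traps glucose in the cell, was 4.27-fold higher in the authors' deposited table (2.10 ± 0.53 on the log2 scale, adjusted p of 0.0016 by the DESeq2 Wald test). Hk1, the constitutive hexokinase, had 0.36 in the same authors' deposited table (adjusted p of 0.34). Gpi1, the isomerase of the next step, had 1.09 ± 0.35 (adjusted p of 0.015 in the authors' deposited table). The committed step differed by isoform: Pfkl was 3.65-fold higher in the authors' deposited table (1.87 ± 0.39, adjusted p of 0.00011), and the platelet type Pfkp had 0.50 (adjusted p of 0.16). Isoforms within a step thus did not all pass the test, though differences between isoforms were not tested. In the later steps of the pathway the authors' deposited table has Eno1 at 2.06 ± 0.36 (adjusted p of 2.3e-06), Pgam1, the mutase before it, at 1.67 ± 0.35 (8.6e-05) and Pkm, pyruvate kinase, at 1.90 ± 0.41 (0.00019). Eno1 at chr4:150236721-150248879 has a near-identical copy, Eno1b, with 1.99 ± 0.35 in the authors' deposited table (adjusted p of 2.1e-06), so reads between the copies are uncertain. Ldha, which turns pyruvate into lactate, had 1.94 ± 0.55 in the authors' deposited table (adjusted p of 0.0056), and Pgk1, an ATP-making kinase, 1.88 ± 0.59 (0.014).

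The remaining enzymes had SEs of 0.57 to 0.86. Tpi1, the triose isomerase, had 1.65 ± 0.57 in the authors' deposited table (adjusted p of 0.026), and Gapdh, often used as a reference gene, 2.11 ± 0.79 (0.044). Gapdh lost its call when fold changes were centred on the median (adjusted p of 0.053). Aldoa had 1.68 ± 0.86 in the authors' deposited table and an adjusted p of 0.16. These genes are also abundant in skeletal muscle, whose 20 markers had a median of 1.77 in the authors' deposited table with 0 called. A fixed list set apart 7 enzymes as muscle-rich: Aldoa, Pkm, Ldha, Gapdh, Tpi1, Pgam1 and Gpi1. Their median was 1.68 (6 of 7 called). The other 6 enzymes, Hk2 and Pgk1 among them, had a median of 1.87 (4 of 6 called). The level of either set in muscle was not measured, so the other 6 are not a muscle-free control. The part of muscle in these values was not tested.

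Transport and control genes ranged more widely. Slc16a3 was 12.1-fold higher in the authors' deposited table (3.60 ± 0.75 on the log2 scale, adjusted p of 8.8e-05), the largest fold of the 18 glycolytic genes. Slc2a1 had 1.87 ± 0.38 in the authors' deposited table (adjusted p of 7e-05) and Pfkfb3 1.65 ± 0.42 (0.0019). Pdk1, a kinase that keeps pyruvate out of the mitochondria, had 0.16 ± 0.20 in the authors' deposited table (adjusted p of 0.62), and Pfkfb4, a relative of Pfkfb3, 0.98 (0.097). Glucose import, lactate export and the activator of phosphofructokinase were thus called, and the mitochondrial gatekeeper was not.

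Of the oxygen sensing genes, the authors' deposited table has Egln3 7.03-fold higher in lesional than in non-UV skin (2.81 ± 0.40, adjusted p of 1.7e-09), Hif1a 4.35-fold (2.12 ± 0.43, 5.5e-05) and Egln1, the main constitutive prolyl hydroxylase, 2.27-fold (1.18 ± 0.26, 0.00031). Hif1a at chr12:73901375-73947530 encodes a subunit set mostly by protein stability, which these tables do not measure. Of the secreted and pH genes, Adm was 20.9-fold higher (adjusted p of 0.0028), Car9 12.1-fold (0.00042) and Vegfa 4.24-fold (5.2e-06) in the authors' deposited table, with Car12, another membrane carbonic anhydrase, at 1.81-fold (0.019). Ndrg1 was 7.10-fold higher in the authors' deposited table (adjusted p of 2.3e-05). Higd1a, a mitochondrial protein of hypoxic survival, had 1.89 ± 0.39 on the log2 scale in the authors' deposited table (adjusted p of 6.9e-05), Ero1l 1.59 ± 0.35 (0.00024), Ddit4, an inhibitor of mTORC1, 1.56 ± 0.45 (0.0071) and Hilpda, a lipid droplet protein, 1.55 ± 0.50 (0.016).

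Several classical HIF targets did not pass. Bnip3, a mitophagy receptor, had 1.40 in the authors' deposited table (adjusted p of 0.11), its relative Bnip3l 0.59 (0.08) and Plod2, a collagen lysyl hydroxylase, 2.28 (0.061). Mxi1, a Myc antagonist, had 0.78 in the authors' deposited table (adjusted p of 0.057) and Ankrd37 1.34 (0.18). Near 0 in the authors' deposited table were P4ha1, the other collagen prolyl hydroxylase alpha subunit, at 0.01, Kdm3a, a histone demethylase, at -0.20, and P4ha2 at 0.17 (adjusted p of 0.98, 0.69 and 0.70). P4ha2 thus was called against perilesional skin and had an interval of -0.35 to 0.70 against non-UV skin. In perilesional over non-UV skin, derived at the largest possible error, P4ha2 had -0.84 and was not called. Its interval there ran from -1.59 to -0.09.

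Genes of neighbouring pathways give a scale for these counts, again in lesional over non-UV skin. Of 17 other glycolysis isoforms 3 rose and 2 fell in the authors' deposited table, where Slc16a1, the lactate transporter MCT1 (1.73 ± 0.30, adjusted p of 2e-06), and Aldoc, an aldolase (2.47 ± 0.58, 0.00062), rose. Pfkfb2, a relative of Pfkfb3 (-1.01 ± 0.28, adjusted p of 0.0042), and the hexokinase Hk3 (-2.15 ± 0.74, 0.026) fell in the authors' deposited table. Of 22 further HIF targets 7 rose in the authors' deposited table, with Stc2, a secreted glycoprotein, at 3.82 ± 0.92 (adjusted p of 0.00087) and Fam162a at 1.61 ± 0.33 (8.1e-05). Of 8 HIF regulators 2 rose, with Epas1, which encodes HIF-2 alpha, at 0.70 ± 0.22 (adjusted p of 0.012) and Vhl, the von Hippel-Lindau gene, at 0.92 ± 0.34 (0.043) in the authors' deposited table. Of 7 pentose phosphate genes 3 rose, led by Tkt, transketolase (1.42 ± 0.27, adjusted p of 1.2e-05 in the authors' deposited table). Of 21 genes of pyruvate entry and the citric acid cycle 0 were called in the authors' deposited table, with 2 at an unadjusted p under 0.05 by the DESeq2 Wald test and a median of 0.58. Of 5 gluconeogenesis genes 1 fell, Pck1 (-3.14 ± 1.14, adjusted p of 0.037 in the authors' deposited table). In lesional over perilesional skin 0 genes of these lists were called, with 6 of 22 further HIF targets, 2 of 17 other glycolysis isoforms and 1 of 7 pentose phosphate genes at an unadjusted p under 0.05 in the derived fit, against 11.1% of all genes.

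Markers of several cell types and of the cell cycle also differed in the non-UV comparison. Stress keratinocyte markers rose in 11 of 11 cases with a median of 4.42, cell cycle genes in 12 of 16 with a median of 1.21, and endothelial markers in 5 of 12 with a median of 2.39, in the authors' deposited table. Sebaceous gland markers rose in 6 of 12 cases with a median of 1.71, and of 7 neutrophil markers 4 rose and 1 fell, in the authors' deposited table. Hair follicle markers had a median of -2.64 and 3 of 16 fell in the authors' deposited table. Over all genes 18.3% were called, and with a null spread taken from the genes 0 of the 25 members remained called, along with 14 of 2785 genes. The part of these markers' cell types in the values was not tested.

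**Figure D2:**
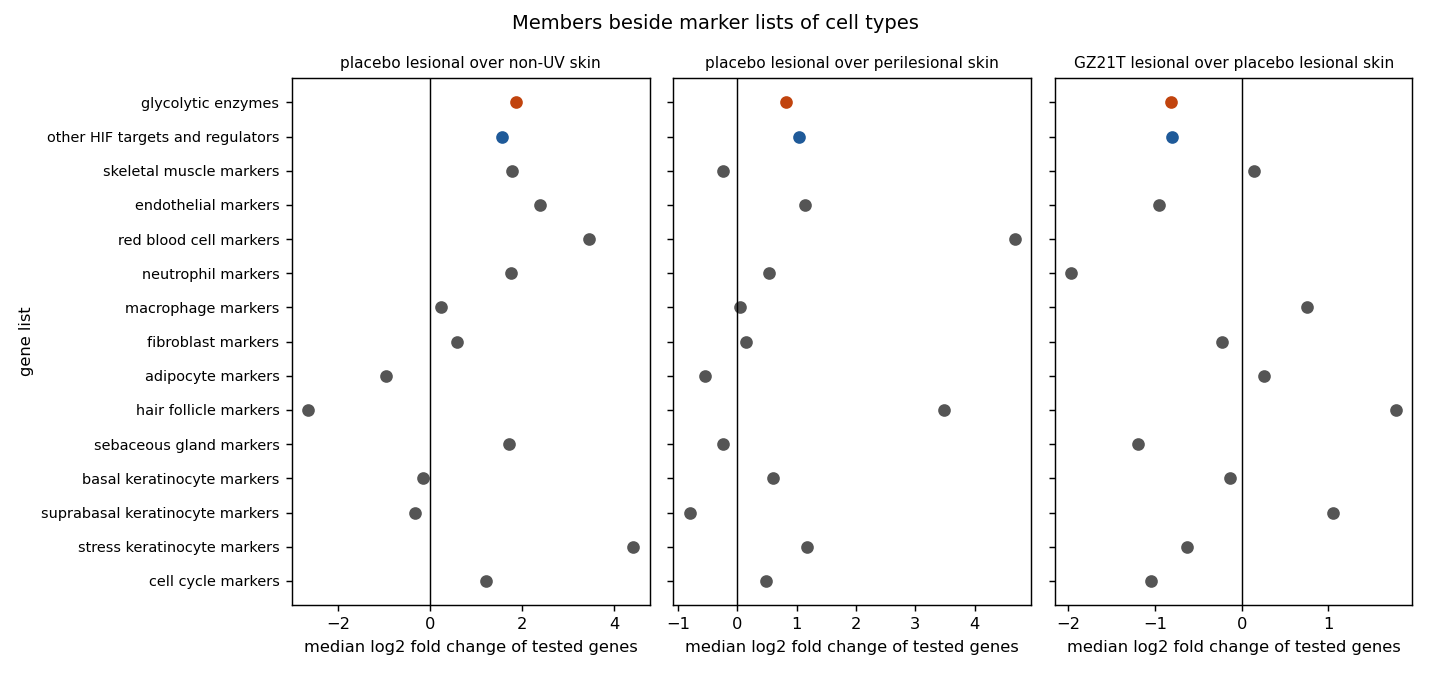
Median log2 fold change of the tested genes of each list (rows) in 3 comparisons, with glycolytic enzymes in orange, other HIF targets and regulators in blue and cell type markers in grey. Enzymes sat at 1.87 beside muscle markers at 1.77 over non-UV skin, at 0.81 beside -0.24 over perilesional skin, and at -0.81 beside 0.15 in GZ21T over placebo lesions, a panel that leaves out red blood cell markers, of which 1 has a group without reads.

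The difference between non-UV skin and the lesion was split into 3 steps between skin sites, which are not a time course. Differences between the enzymes and the other HIF genes were not tested for these steps. In non-lesional irradiated over non-UV skin, the authors' deposited table has 0 of the 38 genes called, against 1.66% of all 14124 genes, and 5 at an unadjusted p under 0.05 by the DESeq2 Wald test, all among the other HIF genes, against 10% of all genes. The medians in this authors' deposited table were 0.60 for the enzymes, 0.63 for transport and control and 0.19 for the other HIF genes, with -0.02 over all genes. All 13 enzymes were positive in the authors' deposited table, as were 13 of 20 other HIF genes, while muscle markers had a median of 1.62. The smallest unadjusted p values in that authors' deposited table belonged to Egln1 (log2 fold change of 0.79, adjusted p of 0.12) and Car12 (0.74, 0.21). The other genes under 0.05 unadjusted were Egln3 (0.98, adjusted p of 0.29), Vegfa (0.90, 0.31) and Higd1a (0.81, 0.45) in the authors' deposited table. Egln3 and Vegfa thus also had positive values in this first step. In perilesional over non-lesional skin the authors' deposited table has 0 of the 38 called, against 0.112% of 15201 genes, and 0 at an unadjusted p under 0.05, against 7.83% of all genes, with medians of 0.29, 0.33 and 0.12. Hair follicle markers had a median of -4.21 in that authors' deposited table (1 of 16 lower) and sebaceous gland markers 2.45 (4 of 12 higher). The last step, lesional over perilesional skin, had the medians 0.81, 0.90 and 1.03.

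**Figure D3:**
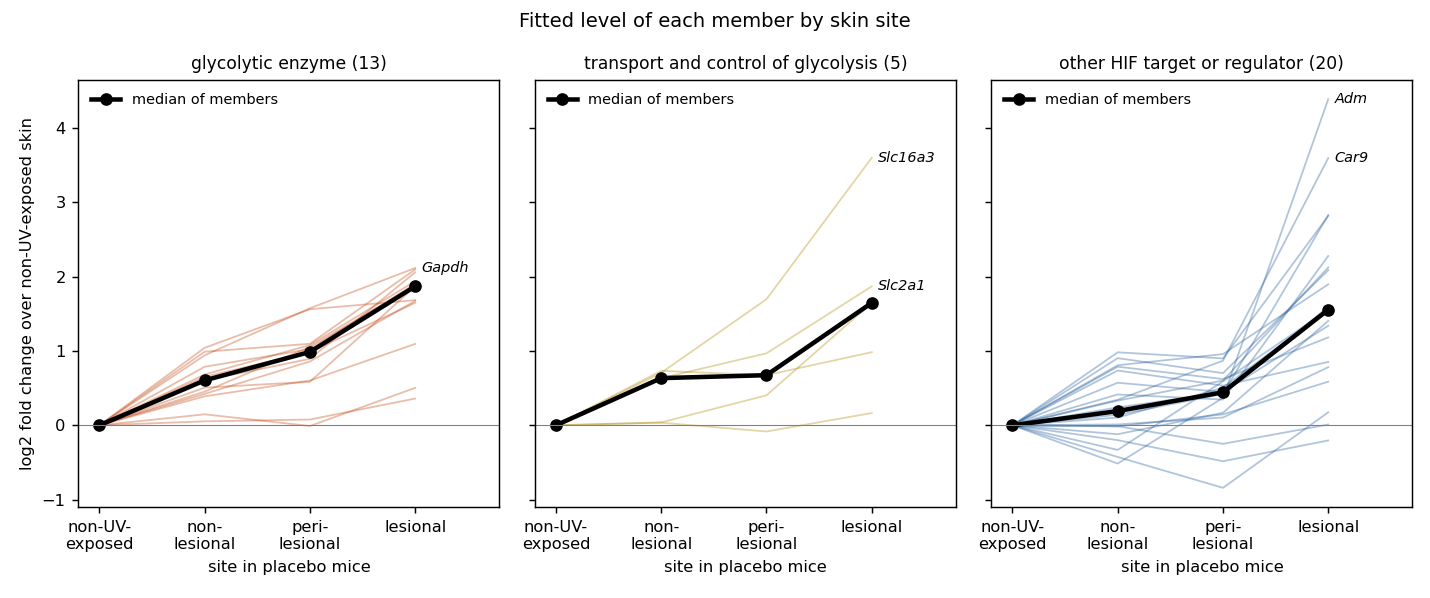
Log2 fold change over non-UV-exposed skin of each gene (thin lines) at the 4 sites of placebo mice, in order, with the median of each role in black. The enzyme median is 0.60 in non-lesional, 0.99 in perilesional and 1.87 in lesional skin, and that of the other HIF genes is 0.19, 0.44 and 1.55.

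Whether the last step exceeded the first was tested gene by gene, since lesional over perilesional skin and non-lesional over non-UV skin share no libraries. The labels give the placebo sites the same numbers, so the steps may share mice, and the test treats the libraries as independent. Only P4ha2 was called, with a difference of 1.44 ± 0.38 on the log2 scale and an adjusted p of 0.019, against 0.375% of 14121 genes called higher. Its log2 fold change was 1.02 in the last step, and -0.43 in the first in the authors' deposited table. At an unadjusted p under 0.05 there were 5 of the 38, against 10.2% of all genes. Among them Ndrg1 had a difference of 2.26 ± 0.77 (adjusted p of 0.13) and Adm of 4.53 ± 1.67 (adjusted p of 0.18). Outside these 5, Egln3 had a difference of 0.93 ± 0.57 (adjusted p of 0.63) and Vegfa of 0.48 ± 0.53 (adjusted p of 0.87). The median difference was 0.18 for the enzymes, 0.27 for transport and control and 0.92 for the other HIF genes, beside 0.08 over all genes. For most enzymes the interval was wide, as with Ldha from -1.34 to 1.69, so the data do not show that the steps were alike.

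Lesional over non-lesional irradiated skin was derived too, but its error is not fixed by the tables. With the largest possible error 0 of the 38 genes and 0% of 14120 genes were called in the derived fit, while 16 of the 38 and 8.03% of all genes had an unadjusted p under 0.05. With the larger of the 2 deposited SEs instead, a choice made after seeing the data, 15 of the 38 rose, against 2.63% of all genes called higher. These were 3 enzymes (Pfkl, Pgam1 and Eno1), 3 of transport and control (Slc2a1, Slc16a3 and Pfkfb3) and 9 other HIF genes. Ndrg1 had a log2 fold change of 2.69, with an adjusted p of 0.29 under the largest error and 0.00071 under the deposited one. Egln3 had 1.83, with adjusted p values of 0.38 and 0.0022.

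Under GZ21T, lesions had less RNA of Egln3, Ndrg1, Hif1a, Ero1l and Pfkl than placebo lesions. In the authors' deposited table of this comparison, with its sign turned so that GZ21T stands over placebo, 5 of the 33 genes tested fell and 0 rose, against 2.29% of 10899 genes called lower. Of those 33 the authors' deposited table has 30 negative, and of all genes tested 6014 were negative. The medians were -0.81 for the enzymes, -0.68 for transport and control and -0.81 for the other HIF genes tested, beside -0.06 over all genes in the authors' deposited table. At an unadjusted p under 0.05 there were 15 of the 33, against 22.9% of all genes, by the DESeq2 Wald test in the authors' deposited table.

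The genes that fell under GZ21T were 4 of the oxygen response and 1 enzyme. Egln3 in GZ21T lesions was at 0.222 of its placebo lesion level in the authors' deposited table, a log2 fold change of -2.17 ± 0.40 with an adjusted p of 0.00064. Ndrg1 was at 0.257 of the placebo level (-1.96 ± 0.55, adjusted p of 0.026) and Hif1a at 0.36 (-1.48 ± 0.43, 0.032) in the authors' deposited table. Ero1l was at 0.388 of the placebo level (-1.37 ± 0.35, adjusted p of 0.016) and Pfkl at 0.385 (-1.38 ± 0.39, 0.029) in the authors' deposited table. These values share the placebo lesional libraries with the lesion comparisons above, so the comparisons are not independent and no overlap between them was tested.

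Next to the threshold in the authors' deposited table stood Slc16a3 (-2.28 ± 0.74, adjusted p of 0.053), Egln1 (-0.81 ± 0.26, 0.053), Eno1 (-1.08 ± 0.36, 0.061), Pgam1 (-0.998 ± 0.35, 0.068) and Pfkfb3 (-1.14 ± 0.42, 0.083). At an adjusted p under 0.1 the count in the authors' deposited table is 11 of 33, 3 of them enzymes and all lower, against 6.44% of all genes called lower. The remaining 10 enzymes had log2 fold changes of -1.13 to -0.15 and adjusted p values from 0.21 to 0.89 in the authors' deposited table. Vegfa had -0.52 ± 0.38 (adjusted p of 0.41 in the authors' deposited table), with an interval from -1.26 to 0.22. Positive values belonged to Car12 (0.15), Kdm3a (0.14) and P4ha1 (0.09) in the authors' deposited table.

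The 5 genes without an adjusted p under GZ21T, which the authors' low-count filter removed, include the largest values. Adm had -5.16 ± 1.22, Car9 -3.17 ± 0.79, Hilpda -1.83 ± 0.51, Plod2 -1.59 ± 0.89 and Ankrd37 -0.60 ± 0.67 in the authors' deposited table. With p-values adjusted over all genes that have one, 7 of the 38 were called lower, against 0.676% of 18800 genes. Adm (adjusted p of 0.012), Car9 (0.022) and Hilpda (0.039) then passed, and Hif1a no longer did (0.051). Low counts set the size of such fold changes poorly, and their intervals were wide, from -7.55 to -2.76 for Adm.

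**Figure D4:**
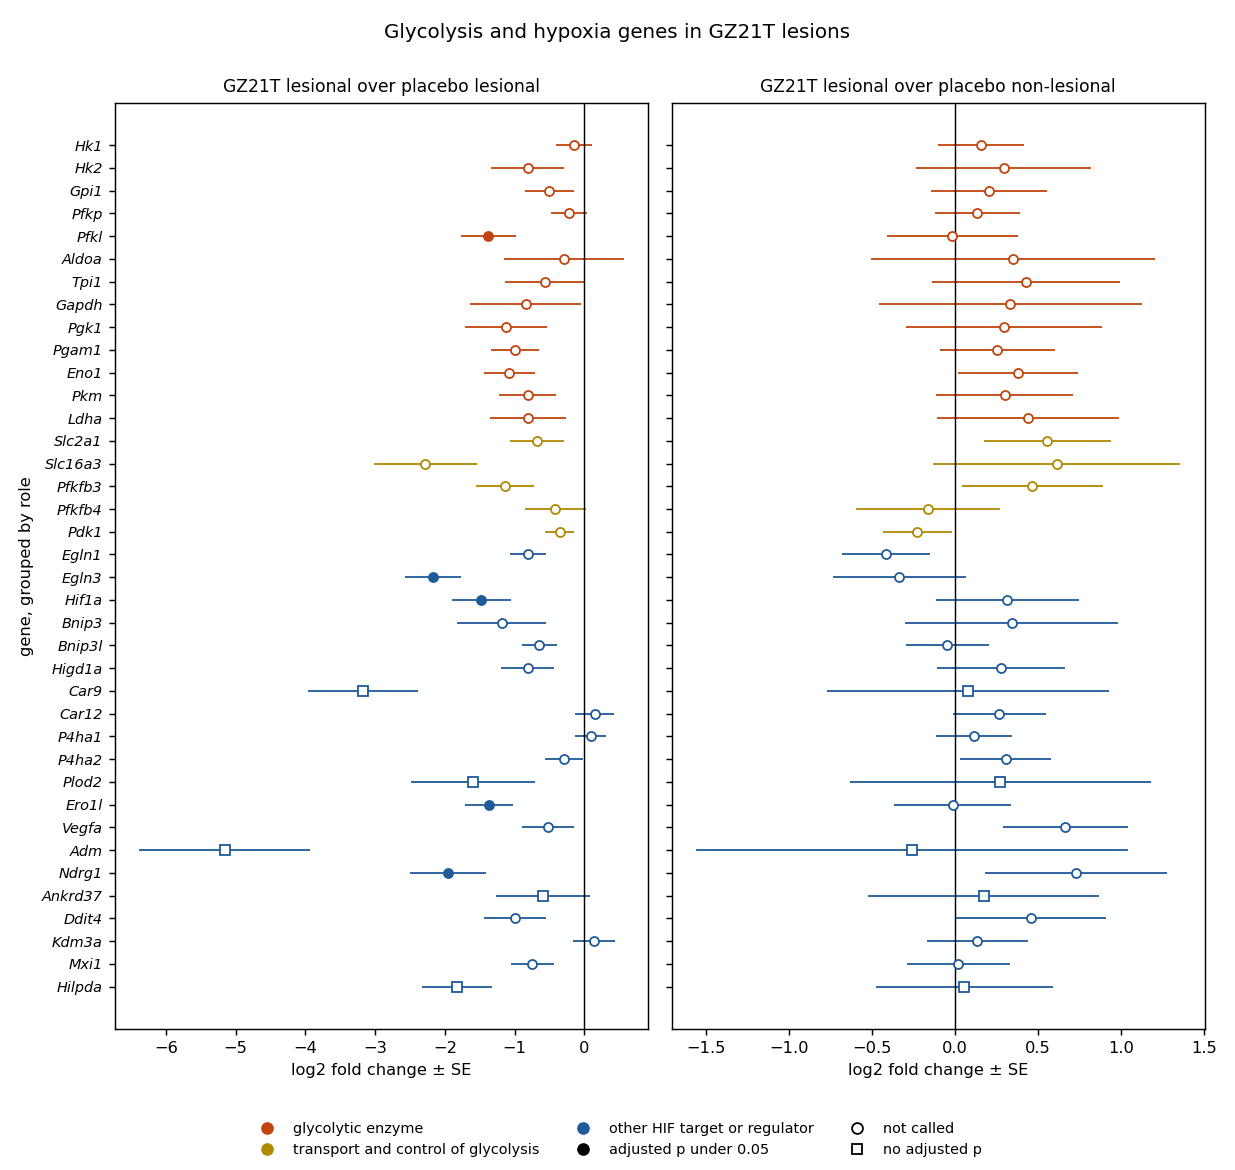
Log2 fold change ± SE of the 38 genes (rows, coloured by role) in GZ21T lesional over placebo lesional skin (left) and over placebo non-lesional skin (right); filled circles mark an adjusted p under 0.05 and squares genes without an adjusted p. On the left 5 genes are filled and lie between -2.17 and -1.37, and on the right 0 are.

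Beside these values the authors' deposited table of GZ21T over placebo has 3 of 16 cell cycle genes lower with a median of -1.04, and 4 of 11 suprabasal keratinocyte markers higher with a median of 1.06. Red blood cell markers were lower in 2 of 2 tested, out of 7 with a fold change. Of these 2, 1 had a log2 fold change of -31.2 in the authors' deposited table, from a group without reads, so its size has no meaning. Neutrophil markers had a median of -1.97 with 0 of 5 called in the authors' deposited table. Endothelial markers had a median of -0.96 with 0 of 8 called in the authors' deposited table, and muscle markers 0.15 with 0 of 19. Stress keratinocyte markers had a median of -0.63 with 0 of 10 called in the authors' deposited table. The part of these cell types in the result was not tested, and with a null spread taken from the genes 0 members were called. Outside the 38 genes, 1 of 19 further HIF targets tested fell in the authors' deposited table: Ak4, an adenylate kinase, with -1.76 ± 0.44 and an adjusted p of 0.013, a gene singled out after its value was seen. Of 7 pentose phosphate genes 1 rose there, G6pdx, the glucose-6-phosphate dehydrogenase (0.42 ± 0.13, adjusted p of 0.041 in the authors' deposited table). Citric acid cycle genes had a median of -0.21 with 0 of 21 called, and 0 at an unadjusted p under 0.05 by the DESeq2 Wald test in the authors' deposited table.

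Set against irradiated non-lesional placebo skin, GZ21T lesions showed no called gene. In that derived comparison 0 of the 33 members and 0% of 10899 genes were called, with 0 members and 352 genes (3.23%) at an unadjusted p under 0.05. The robust SD of the derived statistic over all genes was 0.83, narrower than a standard normal, so the test may call too few genes. With the statistic scaled to that spread, 10 genes and 0 members were called. The medians were 0.29 for the enzymes, 0.47 for transport and control and 0.26 for the other HIF genes. Egln3 had -0.34 with an interval from -1.12 to 0.45, Ndrg1 0.73 with an interval from -0.35 to 1.80, and Vegfa 0.66 with an interval from -0.08 to 1.40. Pfkl had -0.02 (-0.79 to 0.75) and Ero1l -0.02 (-0.71 to 0.67). Intervals of this width do not show that levels were equal.

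**Figure D5:**
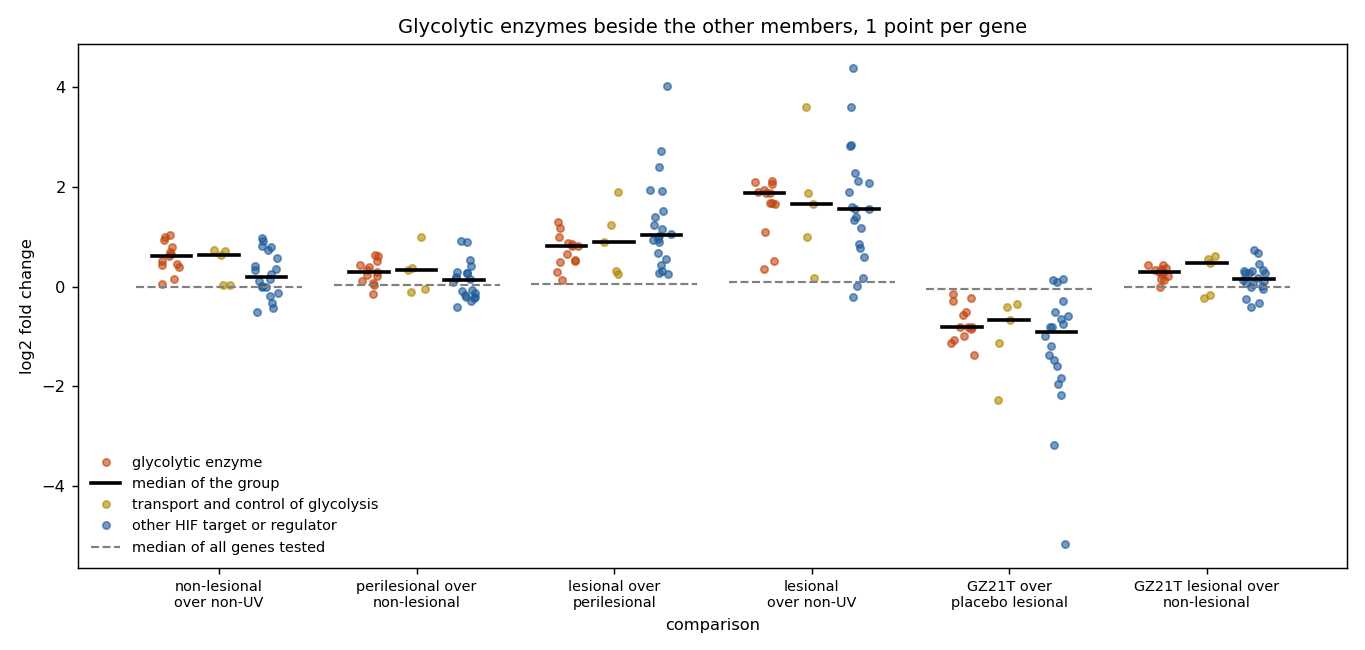
Log2 fold change of each gene (points) by role in 6 comparisons, with the median of each role as a black bar over all its genes, those without an adjusted p included, and that of all genes tested as a dashed line. Enzymes stay within -1.38 to 2.11 and other HIF genes reach from -5.16 to 4.38.

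Across comparisons the enzymes lay close together and the other HIF genes far apart. Both extremes of the other HIF genes belonged to Adm. They were -5.16 ± 1.22 in GZ21T over placebo lesions and 4.38 ± 1.16 in lesional over non-UV skin. Under GZ21T the authors' low-count filter had removed Adm and Car9. The median of the enzymes was set against that of all other members tested, transport and control genes included. It was 0.31 higher in lesional over non-UV skin on the log2 scale. It was 0.20 lower in lesional over perilesional skin and 0.03 lower in GZ21T over placebo lesions. The values for lesional over non-UV skin and for GZ21T use the authors' deposited tables. No test was run on these differences, since the members were listed with results known. Among the 38, the called genes with the largest folds in lesional over non-UV skin, Adm, Slc16a3 and Car9, are an effector of vessels, a lactate carrier and an acid exporter in the authors' deposited table, and none catalyses a step of glycolysis.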

How the data were processed

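An RNeasy kit gave the skin RNA and a stranded total RNA kit the libraries, per the labels' protocols. The submitters' processing notes name Trim Galore for trimming, DESeq2, and the build GRCm38 (mm10). No aligner, counter, version or design formula is given in the sources used. Deposited were 4 tables by gene symbol, each with a log2 fold change from the authors' model, a Wald statistic (a score), a p-value and an adjusted p-value, per the file headers. They hold no counts or values per library, so depth is unknown and precision is given by the SE. One table has a name for perilesional and lesional skin but a header of lesional over back skin, and it was used by its header. As a check, 1423 genes had a fold change of 0 between non-lesional and non-UV skin, of which 704 were positive in this table and 0 negative. The sign of the GZ21T table was turned.

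Calls in the 4 deposited comparisons are the authors'. Lesional over perilesional skin, GZ21T lesional over non-lesional skin and lesional over non-lesional skin were derived by adding and subtracting log2 fold changes. Their variances are exact where 1 fit held the group alone, and for the last the largest possible variance was used. A member's SE differed between tables by a median ratio of 1.008 and at most 1.11. Each derived p-value is a two-sided normal tail, with Benjamini-Hochberg adjustment over the genes that all tables in the sum had tested. The computation was run on simulated independent groups with known SEs. That run checks the arithmetic and cannot check the assumption of 1 fit with unpaired libraries. The difference between steps was added after seeing the data. The alternatives were no low-count filter, a null spread from the genes, centring, genes tested in all tables, a fold threshold, an adjusted p under 0.1, and larger SEs. Every member is accounted for, and those called in any comparison are described with values. The 38 members and the other lists were chosen with earlier results of these data known. Of the wider lists, up to 4 called genes with the smallest adjusted p were selected, and some of these are named. Ak4 is named besides, singled out after its value was seen. Gene coordinates come from GENCODE on GRCm38. Python 3.11.15, pandas 2.3.3 and scipy 1.17.1 were used.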

Additional observations from a re-analysis of the deposited data

How the results depend on the processing

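The count of called genes among the 38 depended most on the null taken for the Wald statistic. Its robust SD over all genes was 1.92 in lesional over non-UV skin, 1.64 in GZ21T over placebo lesions and 1.19 in lesional over perilesional skin. Genes that truly differ are included and widen this SD, so it can exceed the spread of unchanged genes. With the statistic divided by this SD, 0 of the 25, 0 of the 5 and 0 of the 6 called members remained. The counts over all genes were 14 of 2785, 0 of 393 and 1 of 96. The largest of the 3 deposited SEs left 3 members in lesional over perilesional skin and 62 genes. An adjusted p under 0.1 gave 11 members in GZ21T over placebo lesions, and 1092 genes. For lesional over non-lesional skin, the larger of the 2 deposited SEs gave 15 members and 670 genes, against 0 and 0 with the largest possible variance. Without the low-count filter 209 genes were called under GZ21T, and a log2 fold change over 1 left 189 there and 1502 in lesional over non-UV skin. Over all genes, the null spread gave 126 of 235 in non-lesional over non-UV skin, 2 of 17 in perilesional over non-lesional skin and 10 against 0 in GZ21T lesional over non-lesional skin. An adjusted p under 0.1 gave 30 in perilesional over non-lesional, 161 in lesional over perilesional and 2 in lesional over non-lesional skin. Under the other alternatives the member counts stayed within 1.5 times: 4 to 9 in lesional over perilesional skin, 23 to 29 over non-UV skin, and 5 to 7 under GZ21T. Vegfa and Adm, at adjusted p values of 0.041 and 0.049, lost their calls most readily (0.057 and 0.054 after centring). No paired analysis was possible because the tables hold no values per library. Leaving out each replicate and the replicate block were not run for the same reason.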
